A study of Mus musculus with 16 samples.

Results

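Day 7 after partial hepatectomy was compared with day 2 in mouse liver. In this operation part of the liver is removed and the remainder grows back. The comparison used 8 of the 16 expression arrays of the series, the 4 labelled D7 against the 4 labelled D2, chosen by their day label and paired by arm. In the MET_KO_canertinib arm exon 16 of Met had been deleted with a tamoxifen-inducible system and the diet held canertinib, aimed at 80 mg/kg. The MET_FLOX_canertinib arm had the drug without the deletion, the MET_KO arm the deletion without the drug, and the MET_FLOX arm neither. The labels give 1 strain background, 129SV/C57BL/6, and 1 genotype, Metff/ff:ERCre+/+, for all of them, so the flox arms carry the inducible Cre as well. Each arm had 1 array at each day. The labels do not say whether an array held 1 animal or a pool, nor in which cells the deletion took place, and they state no age. Values below are listed in the arm order MET_KO_canertinib, MET_FLOX_canertinib, MET_KO and MET_FLOX unless another order is named.

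MET is the receptor of hepatocyte growth factor, and EGFR binds EGF, TGF alpha and related ligands. Both receptors drive hepatocytes into the cell cycle after loss of liver mass, and canertinib inhibits the kinases of the EGFR family. In mice hepatocytes replicate DNA and divide during the first days after the operation. Division then ends, the matrix and vessels are rebuilt, and liver mass is restored within about a week or more. The day 7 against day 2 comparison asks which transcripts differ between the end of this wave and its height, and whether blocking the receptors alters that difference.

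Met gave signals of 1285, 2014, 2036 and 1962 at day 7 and 982, 1165, 1618 and 1418 at day 2. No source used here places its probe set relative to exon 16, and these values therefore do not check the deletion. Alb, the albumin gene of hepatocytes, gave 35404 to 117413 at day 7 and 18701 to 110086 at day 2, so all 8 arrays carried the defining hepatocyte transcript. Median signals formed 2 sets that no label names. They were 244.9 to 249 in both canertinib arms and 156.4 to 174.8 in the arms without the drug. Both days of an arm lay in the same set. Drug and array set therefore cannot be told apart wherever arms with and without the drug are compared at these days. The Gapdh 3' to 5' ratio, an RNA quality measure, was 1.14, 1.52, 0.817 and 0.869 at day 7 and 1.35, 1.11, 0.765 and 0.776 at day 2. The MET_FLOX_canertinib array of day 7 stood apart. It held transcripts of skeletal muscle, with summed signals of 12 muscle genes of 72463, against 989 to 2322 in the other 15 arrays. Acta1, the actin of skeletal muscle, gave 27210 there and at most 257 elsewhere, and Tnnc2, a fast troponin, gave 9199 there and at most 32 elsewhere. The muscle list was added after these values were seen. What this share of muscle RNA did to other genes of that array was not tested. Where a gene said to have fallen or risen lost its call without the array, this is stated. Some counts are given both with and without it, and others may differ without it.

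Differences are day 7 minus day 2 of log2(signal + 16), where the added 16 dampens the change of dim genes. A linear model fitted with limma to the 12 arrays of days 0, 2 and 7, with arm as a block, called 0 of 13575 genes (0%) at a Benjamini-Hochberg adjusted p below 0.05. At an unadjusted p below 0.05 it gave 582 genes lower at day 7 (4.29% of all genes) and 667 higher (4.91%), in sum 1249 where 679 would arise by chance. The lowest adjusted p was 0.291, shared by 105 genes. Without the muscle-bearing array 512 genes were lower and 554 higher at the unadjusted threshold. The gene lists used here were chosen with earlier results of these arrays known.

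Leaving out the MET_KO_canertinib arm changed this count, whereas leaving out any of the other 3 arms kept it at 0. The cell cycle genes of MET_KO_canertinib were low at day 2, and the arm was left out after that had been seen, so the 3-arm p-values of those genes are not independent of the choice. In the 3 arms MET_FLOX_canertinib, MET_KO and MET_FLOX, 105 genes passed, 76 lower (0.56% of all genes) and 29 higher (0.214%). The 29 genes called higher, of which 4 were higher at day 7 in the arm left out, came from the same choice and carry the same limit. The calls rest on few arrays: 0 genes passed without the MET_KO array of day 7, 1 passed without that of day 2, and 0 passed without the intensity trend in the variances. Calls from this fit are meant wherever a gene is said to have fallen or risen in the 3 arms. Without the muscle-bearing array the 3-arm fit called 88 genes, 47 lower and 41 higher, and the 4-arm fit 0. Of the 50 genes named here that passed in the 3 arms, 28 no longer passed without that array.

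Genes of DNA replication were lower at day 7 in the 3 arms other than MET_KO_canertinib, whose summed day 2 signal for these genes, 22599, was below the 49324 to 83026 of the other arms. In the S phase list 27 of 32 measured genes were lower over the 4 arms at an unadjusted p below 0.05. None was higher, beside 4.29% of all genes lower and 4.91% higher. In the 3 arms 13 fell, beside 0.56% of all genes. Without the muscle-bearing array 13 also passed, though not all of them the same genes. The list's median difference was -1.10 in MET_FLOX_canertinib, -2.07 in MET_KO and -1.62 in MET_FLOX, beside -0.09 in MET_KO_canertinib. The median of all genes was between -0.01 and 0.07 in the 4 arms. In bulk tissue, fewer cells of a kind and less RNA per cell cannot be told apart, here as in all results that follow.

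Rrm2, the small subunit of ribonucleotide reductase, which makes deoxynucleotides, gave 978, 945, 851 and 1118 at day 7, against 1306, 5902, 10002 and 6390 at day 2. The day 7 signals lay close together and below every day 2 signal, and at day 2 the arms spread widely. Rrm2 fell by 2.88 on the log2 scale in the 3 arms (SE 0.26, limma adjusted p = 0.0049, n = 3 arms). Mcm7, a subunit of the MCM helicase that opens DNA for replication, gave 1574, 1371, 1221 and 1328 at day 7, against 1227, 5001, 7852 and 6760 at day 2. It was lower at day 7 in each arm but MET_KO_canertinib and fell by 2.29 in the 3 arms (SE 0.19, limma adjusted p = 0.0049). The subunits Mcm2, Mcm5 and Mcm6 also fell in the 3 arms, with log2 differences of -2.17, -2.29 and -2.89.

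Mcm6 showed how unevenly the arms had started. Its signals were 119, 124, 147 and 302 at day 7, against 152, 568, 1961 and 2543 at day 2. The day 2 signal of MET_FLOX_canertinib was thus well below those of MET_KO and MET_FLOX, while the day 7 signals of all arms were low. Pcna, the sliding clamp of DNA polymerases, gave 1367, 1506, 1495 and 1975 at day 7, against 1461, 5420, 10301 and 9267 at day 2. It fell by 2.28 in the 3 arms (SE 0.27, limma adjusted p = 0.0107). Uhrf1, which maintains DNA methylation behind the replication fork, fell by 2.97, with 115, 163, 200 and 214 at day 7 and 192, 770, 2932 and 1841 at day 2. Asf1b, a histone chaperone that hands new histones to replicated DNA, had the most negative difference of the 3-arm fit's calls, -3.21 (SE 0.37, limma adjusted p = 0.0101). Its signals were 143, 238, 84 and 77 at day 7, against 409, 1134, 1694 and 935 at day 2. In MET_KO_canertinib Asf1b was lower at day 7 as well, with a difference of -1.42.

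**Figure D1:**
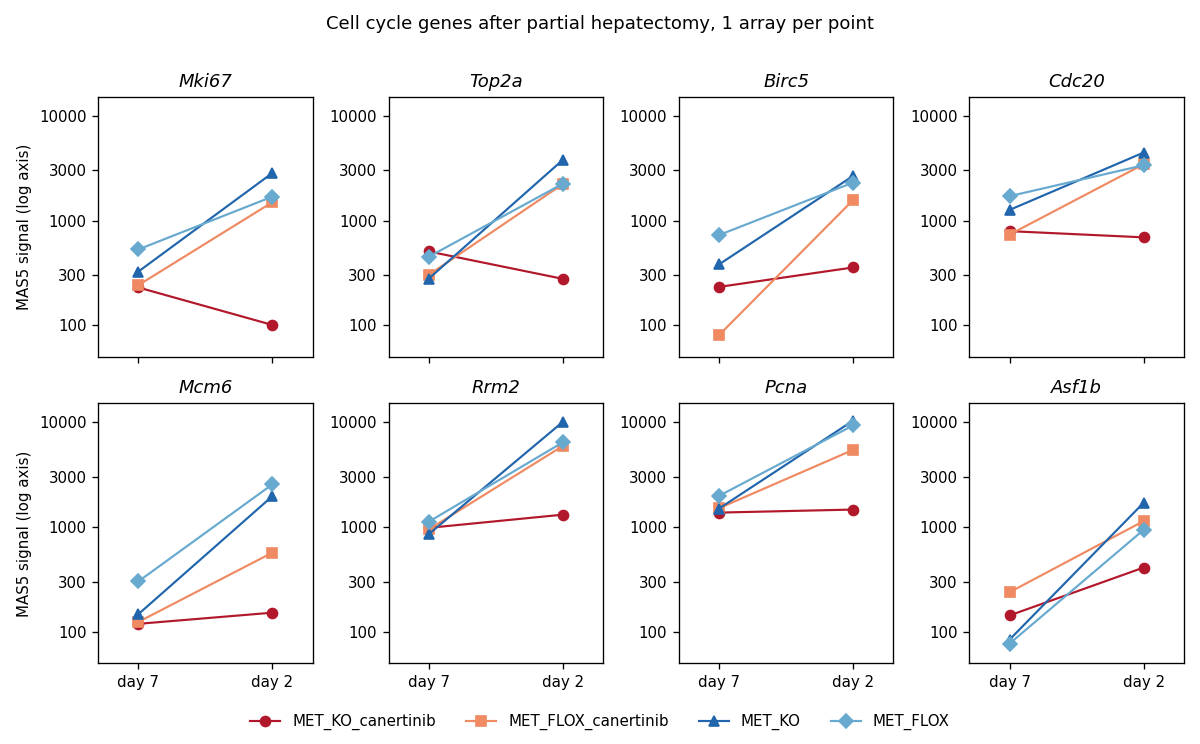
MAS5 signals of 8 cell cycle genes at day 7 (left) and day 2 (right) on a log axis; each point is 1 array and each line joins the days of 1 arm. In 3 arms every gene is lower at day 7, while in MET_KO_canertinib the lines are nearly flat for Pcna (1367 and 1461) and turn the other way for Mki67 (230 and 101) and Top2a (507 and 278).

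Genes of mitosis followed the same pattern. In the G2/M list 35 of 51 measured genes were lower over the 4 arms at an unadjusted p below 0.05 and none was higher. Of all genes 4.29% were lower and 4.91% higher. In the 3 arms 21 of the list fell (0.56% of all genes did), or 10 without the muscle-bearing array. The median difference was -1.63 in MET_FLOX_canertinib, -1.96 in MET_KO and -1.26 in MET_FLOX, beside -0.04 in MET_KO_canertinib. Top2a, the topoisomerase that untangles sister chromosomes, gave 507, 303, 279 and 451 at day 7, against 278, 2225, 3783 and 2242 at day 2. It fell by 2.93 in the 3 arms (SE 0.34, limma adjusted p = 0.0101) and was higher at day 7 in MET_KO_canertinib. Mki67, the gene of the proliferation marker Ki-67, gave 230, 242, 326 and 530 at day 7, against 101, 1496, 2839 and 1690 at day 2. Its day 7 signals exceeded the day 2 signal of MET_KO_canertinib in every arm and lay under the other day 2 signals. Mki67 fell by 2.42 in the 3 arms (SE 0.36, limma adjusted p = 0.0222).

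Birc5, the survivin gene of the chromosomal passenger complex, gave 233, 81, 382 and 727 at day 7, against 357, 1570, 2665 and 2302 at day 2. MET_FLOX_canertinib had the lowest day 7 signal and MET_FLOX the highest. Birc5 fell by 2.81 in the 3 arms (SE 0.52, limma adjusted p = 0.0472). Also called lower were Nuf2, a kinetochore protein (-3.09), Smc2 of the condensin complex (-2.77) and Mad2l1 of the spindle checkpoint (-2.36). Aurkb, the kinase of the passenger complex (-2.15), and Cdc20, an activator of the anaphase-promoting complex (-1.66), were called lower as well. Ccna2, the cyclin of S phase and early mitosis, gave 603, 719, 685 and 852 at day 7, against 745, 2034, 2306 and 1657 at day 2. Its difference of -1.38 in the 3 arms was called (SE 0.23, limma adjusted p = 0.0351). Cdk1 and Plk1, the kinases that start and steer mitosis, missed the threshold narrowly in the 3 arms, with differences of -2.56 and -2.49 (limma adjusted p = 0.0528 for both). Cdk1 signals were 297, 192, 784 and 997 at day 7, against 550, 2432, 4354 and 3234 at day 2, so it was lower at day 7 in all 4 arms. Without the muscle-bearing array Mcm5, Mki67, Birc5, Nuf2, Aurkb, Cdc20 and Ccna2 no longer passed, and the other called genes of both lists named above still did.

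At day 7 the cell cycle signals had an order of their own among the arms. For Birc5, Cdk1 and Mki67 the arms without the drug had higher day 7 signals than both canertinib arms, whereas Top2a was highest in MET_KO_canertinib and Pcna differed little. With 1 array an arm, these orders carry no test. Drug and array set cannot be told apart in them, and 1 of the canertinib arrays is the muscle-bearing one.

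The promoters of these genes are shown because the genes moved together. Stretches of 120 bases just before the start site are given, from RefSeq promoters on GRCm38.p6, 5' to 3' on the strand of the gene, with motif matches on either strand in capitals. The 4 genes were chosen after their values and matches were seen, 2 from mitosis and 2 from replication and its chromatin. Top2a lies at chr11:99024190-99024309 on the minus strand, Cdc20 at chr4:118437344-118437463 on the minus strand, Mcm6 at chr1:128359706-128359825 on the minus strand, and Asf1b at chr8:83955574-83955693 on the plus strand.
Top2a: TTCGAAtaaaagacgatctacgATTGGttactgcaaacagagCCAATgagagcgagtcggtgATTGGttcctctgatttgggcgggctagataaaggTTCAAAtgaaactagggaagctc
Cdc20: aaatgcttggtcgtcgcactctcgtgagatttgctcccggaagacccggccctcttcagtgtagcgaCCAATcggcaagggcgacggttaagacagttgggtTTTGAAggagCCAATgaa
Mcm6: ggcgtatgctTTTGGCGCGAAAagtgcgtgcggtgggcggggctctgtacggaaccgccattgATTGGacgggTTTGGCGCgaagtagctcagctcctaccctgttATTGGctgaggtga
Asf1b: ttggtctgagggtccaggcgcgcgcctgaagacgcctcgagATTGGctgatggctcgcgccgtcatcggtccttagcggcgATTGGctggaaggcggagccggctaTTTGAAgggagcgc
The letters searched were CCAAT, the box bound by NF-Y, TTTGAA or TTCGAA, the core of the cell cycle homology region, and TTTGGCGC or TTTCGCGC, forms of the E2F site. In Mcm6 the E2F forms overlap each other once, on opposite strands.

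In the 250 bases before the first listed start, CCAAT occurred in 31 of 42 G2/M promoters found (73.8%) and in 17 of 29 S phase promoters (58.6%), beside 34.5% of 27025 promoters in all. TTTGAA or TTCGAA occurred in 38.1% of G2/M and 20.7% of S phase promoters, beside 17.4% of all. The E2F forms occurred in 4.76% of G2/M and 17.2% of S phase promoters, beside 0.673% of all. Of the 76 genes that fell in the 3 arms, 64 had a promoter in the table and 68.8% of these held CCAAT. Of the 29 that rose, 26 had one and 38.5% held CCAAT. These shares describe letters and were not tested, and the lists' members were not chosen by sequence.

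In MET_KO_canertinib the cell cycle genes were near the same level at both days. Over the S phase and G2/M lists together, 83 genes had summed signals of 53881, 48042, 48646 and 58902 at day 7, against 56118, 122913, 187815 and 140750 at day 2. The 4 day 7 sums and the day 2 sum of MET_KO_canertinib lay close to each other, and the other day 2 sums were higher. In MET_KO_canertinib 46 of the 83 genes were lower at day 7 and 37 higher, 2 lower by more than 1 and 5 higher by more than 1. Those lower by more than 1 numbered 54 in MET_FLOX_canertinib, 67 in MET_KO and 58 in MET_FLOX. Of the 83 genes 37 were lower at day 7 in all 4 arms, beside 7.59% of all genes. In total 62 of the 83 were lower over the 4 arms at an unadjusted p below 0.05, and 34 fell in the 3 arms. These counts were 51 and 23 without the muscle-bearing array. Of all genes 4.29% were lower and 0.56% fell, with that array included.

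The difference of the day 7 minus day 2 change between MET_KO_canertinib and the other 3 arms was tested in its own limma fit, which called 0 genes (0%). With 1 array a day in MET_KO_canertinib, this fit took its spread, and so its SEs and p-values, from the other 3 arms. At an unadjusted p below 0.05 it gave 469 genes with a higher value in MET_KO_canertinib (3.45% of all genes) and 471 with a lower one (3.47%). Of the 83 cell cycle genes 45 were among those with a higher value and none among those with a lower one, and the median difference between the arms was 1.54. With the muscle-bearing array left out the median difference of the 83 genes was 1.48, beside -0.05 over all genes. Mcm7 had one of the smallest p-values, with a difference of 2.64 (SE 0.38, limma adjusted p = 0.221). Wdr36, a factor of ribosomal RNA processing, differed by 3.48 (SE 0.53, limma adjusted p = 0.238). It gave 525, 151, 159 and 288 at day 7, against 225, 948, 1047 and 1039 at day 2. A dimmer Wdr36 probe set did not share this, with differences of -0.09, -0.01, 0.01 and -0.25 in the 4 arms. Septin3 and Zbtb11 differed by 3.46 and 2.52, each with a low day 2 signal in MET_KO_canertinib. Their signals there were 637 at day 7 and 62 at day 2 for Septin3, and 554 at day 7 and 112 at day 2 for Zbtb11. Across the 76 genes that fell in the 3 arms, 38 were lower at day 7 in MET_KO_canertinib, where 50.7% of all genes were below 0. Their median there was 0.0104, against -1.96 in the 3 arms.

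Genes upstream of replication moved less as a list, with a median of -0.43 over the 4 arms against -1.25 for the S phase list. Of 23 measured G1 cyclins, kinases and E2F factors 10 were lower over the 4 arms at an unadjusted p below 0.05. None was higher, beside 4.29% of all genes lower and 4.91% higher. In the 3 arms 1 of the 23 fell, beside 0.56% of all genes. That one was E2f8, a repressor of E2F targets, with 301, 156, 41 and 263 at day 7 and 331, 985, 810 and 795 at day 2 (3-arm difference -2.65, SE 0.47, limma adjusted p = 0.0409). When the muscle-bearing array was left out, 9 were lower at the unadjusted threshold and E2f8 was no longer called. E2f1, an activator of replication genes, differed by -1.91 in the 3 arms (limma adjusted p = 0.167). Ccnd1, the cyclin induced by growth factors, gave 2508, 5293, 2187 and 3632 at day 7, against 2124, 5404, 8099 and 6256 at day 2. In MET_FLOX_canertinib the day 7 signal nearly equalled that of day 2, and the 3-arm difference of -0.90 was not called (limma adjusted p = 0.267). Foxm1, a factor that drives mitotic genes, had 4 probe sets, and the brightest differed by -0.38 in the 3 arms (limma adjusted p = 0.44). In MET_FLOX_canertinib, MET_KO and MET_FLOX 1 dimmer set differed by -1.37, -4.31 and -2.87 and another by -3.38, -1.08 and -0.80. The remaining dim set went the other way, by 0.88, 1.51 and 1.52.

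The inhibitors of the cycle showed no common direction. Of 18 measured CDK inhibitors and p53 targets 3 were lower and 1 was higher over the 4 arms at an unadjusted p below 0.05. Without the muscle-bearing array these counts were 1 and 1. Of all genes 4.29% were lower and 4.91% higher, with that array included. Cdkn1a, the inhibitor p21, gave 754, 1311, 1332 and 850 at day 7, against 796, 1342, 1870 and 1092 at day 2. Cdkn1b, the inhibitor p27, gave 358, 398, 431 and 518 at day 7, against 193, 275, 480 and 749 at day 2, higher at day 7 in both canertinib arms and lower in the other arms. Neither passed. Gtse1, a list member that is itself a mitotic protein, fell by 2.04 in the 3 arms (limma adjusted p = 0.0499). Mxd4, which pairs with MAX in opposition to MYC, rose in the 3 arms by 1.36 (SE 0.22, limma adjusted p = 0.0295). It gave 398, 487, 889 and 969 at day 7, against 472, 204, 299 and 365 at day 2. Myc itself gave 29, 193, 177 and 284 at day 7, against 312, 179, 271 and 251 at day 2, and its 3-arm difference was -0.10. Neither Gtse1 nor Mxd4 passed without the muscle-bearing array.

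Chromatin, cytoskeletal and nucleolar genes moved in part with the cycle. Of 14 measured histone and chromatin assembly genes 11 were lower over the 4 arms at an unadjusted p below 0.05. The share of all genes was 4.29%. The list's median was -0.63, and without the muscle-bearing array 9 were lower. H2ax, a histone variant, fell by 1.33 in the 3 arms (SE 0.17, limma adjusted p = 0.013). It gave 1289, 1052, 1103 and 1278 at day 7, against 1064, 2856, 2908 and 2910 at day 2. Slbp, which binds histone mRNA, fell by 1.33 and Hmgb2, a chromatin protein, differed by -1.75 (limma adjusted p = 0.0647). Slbp no longer passed without the muscle-bearing array. Among cytoskeletal genes 2 of 21 fell in the 3 arms, beside 0.56% of all genes, or 1 without that array. Tubb5, a beta tubulin, fell by 1.52. Stmn1, which destabilizes microtubules, fell by 1.75, and Kpna2, a nuclear import adaptor, fell by 1.60. Ribosome biogenesis genes had a median of -0.20. Of 28 genes 4 were lower at an unadjusted p below 0.05, beside 4.29% of all genes, and none was called in the 3 arms. The largest differences among them were -1.21 for Nop56 and -0.75 for Nhp2, both parts of small nucleolar ribonucleoproteins. A dimmer Nop56 probe set was higher at day 7 in MET_FLOX_canertinib by 1.46.

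Macrophage genes moved the other way. In the Kupffer cell and macrophage list 13 of 21 measured genes were higher over the 4 arms at an unadjusted p below 0.05. None was lower, beside 4.91% of all genes higher and 4.29% lower. In the 3 arms 8 rose, beside 0.214% of all genes. Without the muscle-bearing array 5 were higher over the 4 arms at that threshold and 2 rose in the 3 arms, with a 3-arm median of 0.97 in place of 1.31. Kupffer cells are the resident macrophages of the liver sinusoids. The list's summed signal was 31235, 120201, 73944 and 81281 at day 7, against 40038, 34014, 29110 and 43650 at day 2. The 3 arms overlapped with no day 2 value, whereas MET_KO_canertinib lay within the day 2 range. The muscle-bearing MET_FLOX_canertinib array had the highest sum of day 7.

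Marco, a scavenger receptor of macrophages, gave 640, 6292, 4610 and 3885 at day 7, against 1666, 1249, 897 and 1985 at day 2. In MET_KO_canertinib it was lower at day 7, and in each other arm it was higher. Marco rose in the 3 arms by 1.87 (SE 0.30, limma adjusted p = 0.0314). Clec4f, a lectin that in mouse liver marks Kupffer cells, gave 1339, 6902, 3529 and 5505 at day 7, against 1497, 1710, 1115 and 2449 at day 2. It rose in the 3 arms by 1.60 (SE 0.27, limma adjusted p = 0.0339). Timd4, a phosphatidylserine receptor of resident macrophages, rose by 1.37, and Cd5l, a secreted macrophage protein, by 1.56. C1qc, a chain of the complement component C1q, rose by 1.53. Cd163, the receptor of haptoglobin-bound haemoglobin, gave 506, 3759, 1025 and 1172 at day 7, against 600, 394, 258 and 879 at day 2, and did not pass (3-arm difference 1.85, limma adjusted p = 0.156).

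Genes shared by macrophages and other myeloid cells behaved alike. Mpeg1, the pore-forming perforin-2, gave 2720, 5648, 7337 and 5825 at day 7, against 3228, 2158, 1630 and 1516 at day 2. Mpeg1 rose in the 3 arms by 1.82 (SE 0.20, limma adjusted p = 0.0101), and all 3 day 7 signals of those arms exceeded every day 2 signal. Tyrobp, a signalling adaptor, rose by 1.44, Ctss, a lysosomal protease, by 1.48, Cybb, a subunit of the phagocyte NADPH oxidase, by 1.48, and Lyz2, lysozyme, by 1.38. Il1rn, the interleukin 1 receptor antagonist, rose in the 3 arms by 1.81 (SE 0.32, limma adjusted p = 0.0412). Its signals were 93, 1082, 799 and 863 at day 7, against 1160, 130, 266 and 430 at day 2. MET_KO_canertinib ran opposite to the other arms by a difference of -5.24 (SE 0.65, limma adjusted p = 0.179), the smallest p of that test. The other Il1rn probe sets were also lower at day 7 in MET_KO_canertinib. In MET_FLOX_canertinib they showed little difference. Without the muscle-bearing array Cd5l, Mpeg1, Ctss and Cybb still passed, and Marco, Clec4f, Timd4, C1qc, Tyrobp, Lyz2 and Il1rn did not.

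**Figure D2:**
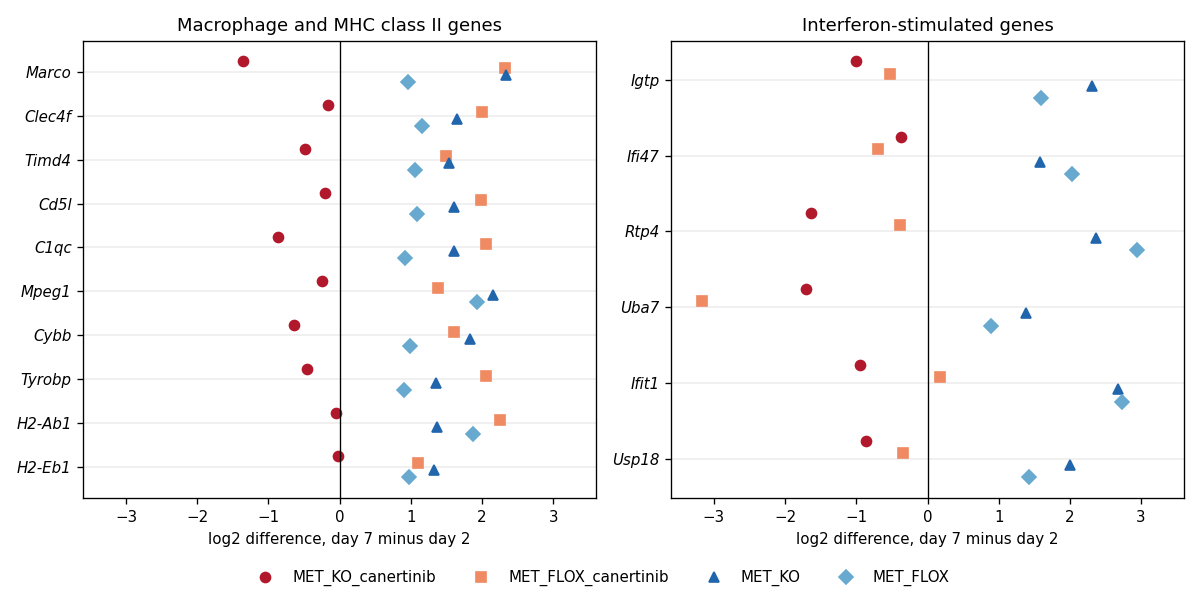
Log2 difference, day 7 minus day 2, in each arm for 10 macrophage and MHC class II genes (left) and 6 interferon-stimulated genes (right); each point is 1 pair of arrays. On the left MET_KO_canertinib alone lies at or below 0, as for Marco at -1.36, and on the right both canertinib arms lie left of both arms without the drug, as for Igtp at -1.01 and -0.52 against 2.31 and 1.60.

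MHC class II genes, which present antigen on macrophages, dendritic cells and B cells, were looked at after H2-Ab1 and H2-Eb1 had been seen among the called genes. H2-Ab1, a class II beta chain, gave 1028, 1337, 1202 and 1657 at day 7, against 1062, 269, 454 and 437 at day 2. In MET_KO_canertinib the level was the same at both days, and the day 7 signals of all arms were similar. H2-Ab1 rose in the 3 arms by 1.83 (SE 0.27, limma adjusted p = 0.0203) and H2-Eb1 by 1.14 (SE 0.21, limma adjusted p = 0.0472). The 7 measured class II genes had medians of -0.02, 1.10, 1.33 and 0.98 in the 4 arms. Their summed signals were 7258, 8774, 6090 and 7925 at day 7, against 6896, 3915, 2604 and 3315 at day 2. Among complement genes, Cfp, properdin, rose in the 3 arms by 1.63, and C1ra, a protease made mainly by hepatocytes, by 0.93. A dimmer Cfp probe set differed by only 0.14, 0.45 and 0.20 in these arms. H2-Eb1, Cfp and C1ra no longer passed without the muscle-bearing array.

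In the macrophage list 15 of 21 genes had a lower day 7 minus day 2 change in MET_KO_canertinib than in the other arms at an unadjusted p below 0.05, and none a higher one. The median difference was -1.65. Leaving out the muscle-bearing array gave a median of -1.34, beside -0.05 over all genes. Of the 29 genes that rose in the 3 arms 4 were higher at day 7 in MET_KO_canertinib, where 49.3% of all genes lay above 0. Their median there was -0.207, against 1.53 in the 3 arms. Lims2, a focal adhesion protein, was one of these 4 and differed by a like amount in every arm. It gave 1556, 1939, 2012 and 1757 at day 7, against 720, 802, 936 and 888 at day 2, with no overlap between the days. Its 3-arm difference was 1.11 (SE 0.18, limma adjusted p = 0.0294), and its 4-arm difference was 1.10 (SE 0.18, limma adjusted p = 0.291). The 3-arm call was lost without the muscle-bearing array.

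Interferon-stimulated genes separated the arms by drug. The difference of the day 7 minus day 2 change between canertinib arms and arms without the drug was tested over 13575 genes and called 0 (0%), with 1173 at an unadjusted p below 0.05 and a lowest adjusted p of 0.101. The 6 smallest p-values all belonged to genes induced by interferon, Igtp, Ifi47, Rtp4, Uba7, Ifit1 and Usp18. Without the muscle-bearing array these 6 ranked between 7 and 20, so the 6 smallest p-values then belonged to other genes. Rtp4 gave 593, 480, 2658 and 2516 at day 7, against 1862, 630, 505 and 314 at day 2. In both arms without the drug it was higher at day 7, in both canertinib arms it was lower, and the difference was -3.65 (SE 0.46, limma adjusted p = 0.101). Ifit1, which binds viral RNA, gave 604, 453, 1418 and 1186 at day 7, against 1179, 401, 209 and 165 at day 2, a difference of -3.09 (SE 0.41, limma adjusted p = 0.101).

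Igtp, an immunity-related GTPase, gave 1218, 1172, 3938 and 3498 at day 7, against 2464, 1683, 783 and 1143 at day 2. The day 7 signals of the arms without the drug exceeded all others of these 8 arrays. The differences were -2.72 for Igtp, -2.34 for Ifi47, another such GTPase, and -2.31 for Usp18, a protease that removes ISG15 and restrains interferon signalling. Uba7, the enzyme that activates ISG15, differed by -3.57, and another of its probe sets was higher at day 7 in MET_FLOX_canertinib. The arms with and without the drug also form the 2 sets of array medians at these days, so drug and array set cannot be told apart. Each arm's own change lies within 1 set. With the muscle-bearing array left out the 6 differences ran from -3.97 to -2.16 and their adjusted p-values in limma from 0.125 to 0.183.

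A list of interferon-stimulated genes was put together after these 6 had been seen, and serves as a description only. Of its 44 measured genes, 4 were higher at day 7 in MET_KO_canertinib and 20 in MET_FLOX_canertinib, against 43 in MET_KO and 43 in MET_FLOX. Over all genes 48.9% were higher at day 7 in MET_FLOX_canertinib, 55.1% in MET_KO and 55.3% in MET_FLOX. The list's median difference was -0.61, -0.06, 1.27 and 1.09 in the 4 arms. Its summed signals were 58441, 59228, 120618 and 125182 at day 7, against 83734, 62906, 48957 and 52685 at day 2.

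Acute phase genes, many of which hepatocytes raise under interleukin 6, were higher at day 7 chiefly in the arms without the drug. Drug and array set cannot be told apart here either. Summed signals of all genes were 18750882 in MET_KO and 19722579 in MET_FLOX at day 2. The other sums lay between 21311743 and 21972928 at these days. What this did to bright genes was not tested. The acute phase list's median difference was -0.37, 0.09, 1.01 and 0.95. Of 22 measured genes 4 were higher over the 4 arms at an unadjusted p below 0.05 and 2 rose in the 3 arms. Without the muscle-bearing array these counts were 6 and 4. Of all genes 4.91% were higher and 0.214% rose, with that array included. Saa4, a serum amyloid of the high density lipoprotein, gave 18072, 33019, 19568 and 21453 at day 7, against 19374, 11322, 5911 and 7530 at day 2. It did not follow the division by drug, with differences of -0.10, 1.54, 1.72 and 1.51. Saa4 rose in the 3 arms by 1.59 (SE 0.18, limma adjusted p = 0.0101). Orm2, alpha-1-acid glycoprotein, gave 8171, 18142, 28670 and 38136 at day 7, against 10964, 4926, 2407 and 4720 at day 2, and narrowly missed (3-arm difference 2.82, limma adjusted p = 0.06). Saa1 and Lcn2, which are induced by inflammation, differed by 0.44 and 0.45 in the 3 arms with SEs of 0.74 and 1.11.

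Liver function genes showed smaller differences. Of 31 measured plasma protein genes 19 were higher at day 7 in each of the 3 arms, beside 21.1% of all genes, 1 fell there, and none rose. The list's median was -0.16, 0.07, 0.90 and 0.54 in the 4 arms. Alb differed by -0.43, 0.09, 0.92 and 0.81, and Cyp2e1 and Cyp3a11, cytochromes of drug metabolism, by 0.71 and 0.57 in the 3 arms. None of these passed. Apoa4, an apolipoprotein, fell by 1.26 in the 3 arms (SE 0.23, limma adjusted p = 0.0455). It gave 16805, 11595, 7623 and 6721 at day 7, against 14064, 24039, 15499 and 22019 at day 2. Fabp2, a fatty acid carrier best known from intestine, fell by 1.45, and Sult1a1, a phenol sulfotransferase, fell by 1.22. Dio1, which activates thyroid hormone, rose in the 3 arms by 1.86 (SE 0.33, limma adjusted p = 0.0412). Its signals were 2003, 3553, 3253 and 5253 at day 7, against 2141, 1396, 889 and 992 at day 2. None of Apoa4, Fabp2, Sult1a1 and Dio1 passed without the muscle-bearing array.

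**Figure D3:**
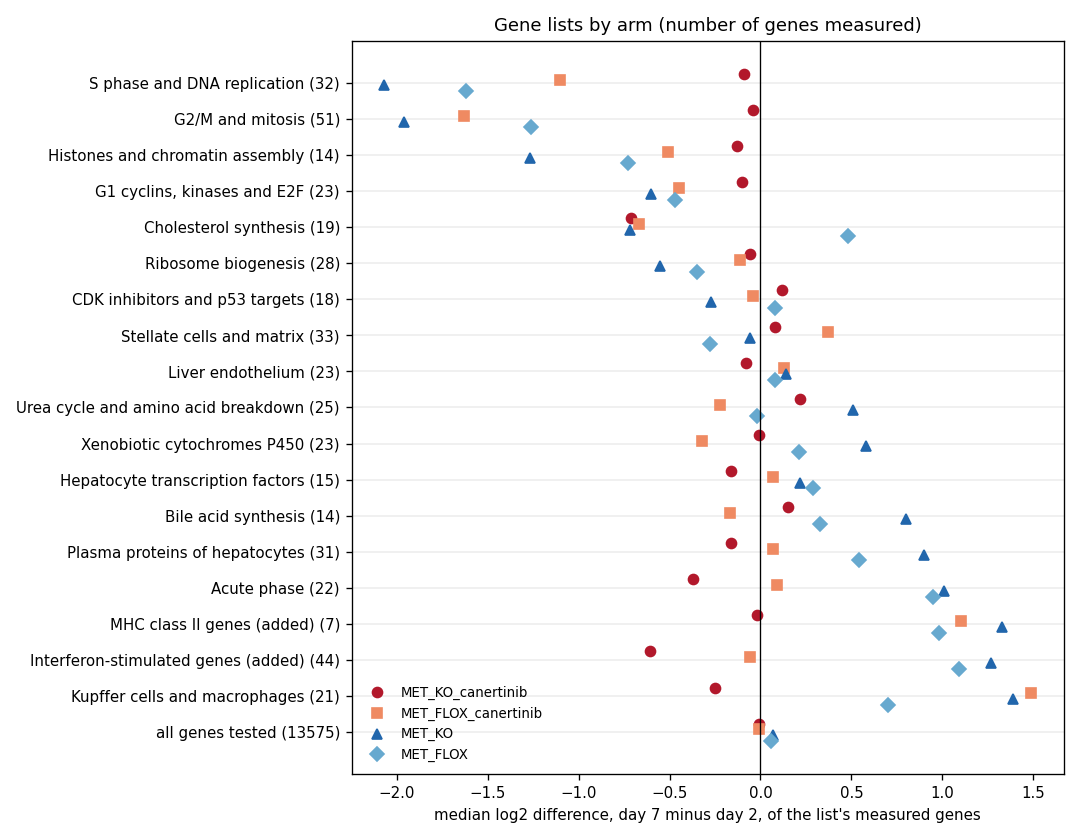
Median log2 difference, day 7 minus day 2, of each list's measured genes (number in brackets), with 1 point per arm. The S phase and G2/M lists lie at -2.07 to -1.10 in 3 arms and close to 0 in MET_KO_canertinib, and the macrophage list lies at 0.70 to 1.49 in 3 arms and at -0.25 in MET_KO_canertinib.

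Metabolic lists held few genes past the threshold. Cholesterol synthesis genes had medians of -0.71, -0.67 and -0.72 in MET_KO_canertinib, MET_FLOX_canertinib and MET_KO and of 0.48 in MET_FLOX. Over the 4 arms 2 of 19 were lower at an unadjusted p below 0.05, beside 4.29% of all genes. Without the muscle-bearing array none of the 19 was. Idi1, an isomerase of that pathway, gave 1653, 946, 4446 and 10671 at day 7, against 4642, 1797, 9034 and 7260 at day 2, so MET_FLOX alone was higher at day 7. Sqle, squalene epoxidase, differed in the same arms by -1.09, -0.25, -0.57 and 0.95. In bile acid synthesis Cyp8b1, the sterol 12-alpha-hydroxylase, gave 2991, 620, 5882 and 1912 at day 7, against 3545, 873, 836 and 142 at day 2. It was higher at day 7 in the arms without the drug and slightly lower with it, and did not pass (4-arm difference 1.42, limma adjusted p = 0.564). Cyp7a1, the rate-limiting enzyme of bile acid synthesis, differed by 0.29 over the 4 arms. Pck1, the first committed enzyme of gluconeogenesis, was higher at day 7 in all 4 arms by 0.40 to 1.02 (4-arm difference 0.69, SE 0.17, limma adjusted p = 0.291).

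Of 15 measured transcription factors of hepatocytes 1 was lower over the 4 arms at an unadjusted p below 0.05. The share of all genes was 4.29%. None of the 15 was called in the 3 arms. Hnf4a, a central transcription factor of hepatocytes, gave 13990, 13360, 11840 and 11976 at day 7, against 16800, 13572, 8751 and 8743 at day 2. Its differences were -0.26, -0.02, 0.44 and 0.45 in the arms. A dimmer Hnf4a probe set differed by 0.64, 0.71, 0.59 and -0.08, so its probe sets disagreed in direction. Cebpa, which restrains hepatocyte division, differed by -0.16, 0.14, 0.88 and 0.93, and was thus higher at day 7 mainly in the arms without the drug (3-arm difference 0.65, not called). Afp, the fetal counterpart of albumin, differed by -1.08 in the 3 arms (limma adjusted p = 0.207), and 1 of its 5 probe sets had the opposite mean sign. Epcam, a marker of bile duct and progenitor cells, gave 640, 194, 326 and 52 at day 7, against 771, 766, 643 and 642 at day 2. It was lower at day 7 in all 4 arms and narrowly missed in the 3 arms (difference -2.04, limma adjusted p = 0.0528), while a much dimmer probe set differed by -0.07, -0.26, 0.43 and 1.64.

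Stress and metal genes gave wide spreads. Hspa1b, an inducible HSP70 chaperone, gave 1796, 2151, 7946 and 5192 at day 7, against 1370, 579, 1787 and 1092 at day 2. It was higher at day 7 in every arm and rose in the 3 arms by 2.08 (SE 0.31, limma adjusted p = 0.0222). Mt1 and Mt2, the metallothioneins that bind zinc and copper, differed by 2.75 and 3.07 in the 3 arms with SEs of 0.94 and 0.87, and neither passed. Mt2 gave 11136, 22124, 15887 and 14567 at day 7, against 25798, 4462, 2044 and 930 at day 2. Nfil3, a clock-linked repressor, was higher at day 7 in all 4 arms by 0.81 to 2.66 (4-arm difference 1.47, SE 0.34, limma adjusted p = 0.291).

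The growth factor pathways themselves showed no called gene. Over the 4 arms, 4 of 21 measured MET and EGFR ligands, receptors and adaptors were higher at an unadjusted p below 0.05. Lower at that threshold was 1, and the shares of all genes were 4.91% higher and 4.29% lower. Without the muscle-bearing array the list counts were 3 and 0. Hgf, the ligand of MET, gave 273, 683, 310 and 180 at day 7, against 214, 553, 368 and 306 at day 2. Egfr gave 6514, 7799, 7706 and 7621 at day 7, against 6343, 4368, 7636 and 5516 at day 2, and its probe sets disagreed in direction. Hbegf, a ligand of EGFR, gave 382, 400, 336 and 319 at day 7, against 86, 75, 249 and 249 at day 2. Every day 7 signal exceeded every day 2 signal, with differences of 1.97 and 2.19 in the canertinib arms and 0.41 and 0.34 in the others. A second Hbegf probe set of like brightness did not share this, with differences of -0.18, 0.88, -0.22 and -0.01. Lrig1, which turns down EGFR, was higher at day 7 in all 4 arms (4-arm difference 0.71, SE 0.19, limma adjusted p = 0.311), although a dimmer probe set was lower in MET_KO. Tgfb1, an inhibitor of hepatocyte division, was higher by 0.28 to 0.81 in all 4 arms (4-arm difference 0.45, limma adjusted p = 0.571). Igf1, the hormone made under growth hormone, differed by -0.11 over the 4 arms, and its probe sets disagreed in direction in every arm. Igfbp1, which binds IGF1, differed by -1.59 in MET_KO_canertinib and by 2.10, 2.21 and 1.37 in the other arms, and was not called. Stellate cell and matrix genes had a median of 0.06 over 33 genes. Over the 4 arms 1 was higher at an unadjusted p below 0.05, beside 4.91% of all genes. The medians by arm were 0.08, 0.37, -0.06 and -0.28. In MET_FLOX_canertinib, whose day 7 array holds muscle transcripts, 29 of 33 were higher, and in MET_FLOX 24 were lower. The 3-arm median was 0.10, or -0.14 without the muscle-bearing array.

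Of the genes with an unadjusted p below 0.05 and 1 direction in all 4 arms, 398 were lower and 465 higher at day 7. All genes lower in all 4 arms made up 7.59% of those tested, and all higher 9.9%. Among the 15 of the 398 with the largest differences, 8 were S phase or G2/M list members. The others were Asf1b and E2f8, described above, and Kif18a, Zwilch, Lrr1, Olig1 and Mmp7. Kif18a is a mitotic kinesin and Zwilch a kinetochore protein. Other probe sets of Lrr1 were not lower in the canertinib arms. Mmp7, a matrix metalloprotease, gave 118, 155, 80 and 82 at day 7, against 804, 359, 290 and 555 at day 2. Of the 15 with the largest positive differences, 2 were skeletal muscle genes, Neb and Atp2a1, whose highest signal lay in the muscle-bearing array.

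Set against the other days, the 83 cell cycle genes had summed signals of 45641, 43806, 40796 and 40263 at day 0 and 44395, 47208, 46554 and 49273 at day 14. The day 7 sum was higher than both in every arm. At day 14 the MET_KO and MET_FLOX arrays had median signals of 246.3 and 245.8, against 166.7 and 174.8 at day 7. In these 2 arms day 14 thus lies in the other array set, and what this did to comparisons with day 14 was not tested. The distance was wide for Birc5, which gave 48, 45, 19 and 48 at day 0 and 69, 30, 59 and 118 at day 14. Its day 7 signals of 382 in MET_KO and 727 in MET_FLOX were several-fold higher. Mcm7 gave 773, 1038, 1519 and 1246 at day 0 and 809, 1251, 926 and 967 at day 14. Mki67 gave 170, 65, 60 and 190 at day 0 and 172, 102, 368 and 245 at day 14. Marco had another course, with 875, 689, 231 and 504 at day 0 and 6527, 3017, 700 and 5136 at day 14. In MET_KO_canertinib its signal was high at day 14, and in MET_KO it was low again. H2-Ab1 gave 1003, 865, 2308 and 2146 at day 0 and 638, 758, 1466 and 1451 at day 14, so that in 3 arms day 2 was its lowest point. Ifit1 gave 3109, 2358, 968 and 708 at day 0 and 492, 565, 814 and 730 at day 14. In both canertinib arms its highest signal was that of day 0.

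**Figure D4:**
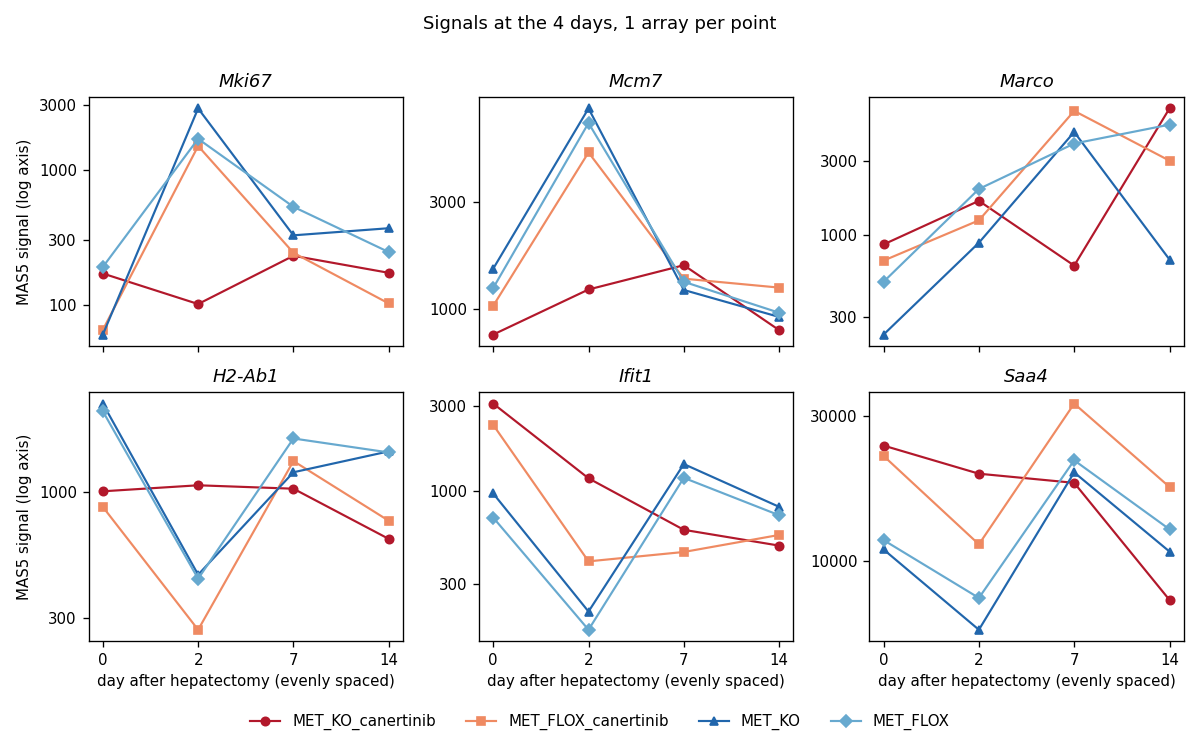
MAS5 signals of 6 genes at days 0, 2, 7 and 14 on log axes (days evenly spaced), 1 array per point and 1 line per arm. Mki67 and Mcm7 peak at day 2 in all arms but MET_KO_canertinib, where Mki67 is lowest at day 2 (101), and H2-Ab1 is lowest at day 2 in the other 3 arms. In MET_KO and MET_FLOX the day 14 arrays lie in another set of array medians than the earlier days.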

How the data were processed

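Liver RNA (6 ug of total RNA per array, per the labels) was hybridised to Affymetrix Mouse Genome 430 2.0 arrays, and the authors deposited linear MAS5 signals, 1 intensity value for each probe set. MAS5 is named in the submitters' processing notes without a version. In each array the mean without the outer 2% of probe sets was 500. Of 45101 probe sets, 34945 with a single gene were used, 932 named several genes, 9160 none and 64 were controls. Probe sets above their own array's median in at least 4 of 16 arrays were kept, and each gene was taken from its probe set of highest mean (13575 genes). Log2(signal + 16) was fitted in R 4.3.3 by limma 3.58.1 with arm as a block and day as a term. Variances were moderated along a trend with intensity, and 6 degrees of freedom remained (4 in the 3-arm fit and in the tests between arms). Tests were two-sided with Benjamini-Hochberg adjustment over all genes, and the fit was tested on simulated data. The number of arrays limits the precision, and p-values reflect how arrays of different arms and days scatter, since no arm has a repeat array on any day.

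The comparison, its lists and the tests were chosen with earlier results of these data known. Genes were named by rule: the 15 largest differences per direction with an unadjusted p below 0.05 and 1 direction in 4 arms, up to 4 called or 2 largest per list, a panel of 42 genes (39 measured), the 6 smallest p-values of each test between arms, and genes called without MET_KO_canertinib. From these the text describes those that show each group. The 3-arm fit and the muscle, interferon and MHC class II lists were added after seeing the data. Alternatives were other pseudocounts, filters, scalings and arrays. A further test, of knockout against flox arms, had 350 genes at an unadjusted p below 0.05, and limma called 0.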

Additional observations from a re-analysis of the deposited data

Results flagged for a closer look

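Within each day the 4 arrays of a gene were checked for a signal whose gap to the nearest other was, as a share of the range on the log2 scale, above Dixon's critical value. Of 200 sets of 4 arrays, 10 were picked out in this way, where chance alone picks about 1 in 20. At day 2 the MET_KO_canertinib array was low for Cdc20 (691, others 3363 to 4441), H2ax (1064, others 2856 to 2910) and Wdr36 (225, others 948 to 1047). It was high for S100a8, a calcium-binding protein of neutrophils (4349, others 258 to 366), and for Kif18a, a mitotic kinesin (458, others 179 to 198). At day 7 the same arm was low for Il1rn (93, others 799 to 1082), Cfp (127, others 1697 to 2274), Met (1285, others 1962 to 2036) and Egfr (6514, others 7621 to 7799). The MET_FLOX_canertinib array of day 7, which holds muscle transcripts, was low for Smc2 (81, others 260 to 311).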

How the results depend on the processing

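Day 2 and day 7 arrays of the MET_KO_canertinib arm decided the count of the 4-arm fit. Leaving out 1 array at a time gave 0 to 112 called genes. It was 112 (16 higher, 96 lower) without that arm's day 2 array, 2 without its day 7 array and 0 otherwise. With only the arms of the low array set 97 were called, and 0 with only those of the high set. The 3-arm count of 105 was 0 without the intensity trend, 69 with no filter on low signals and 67 after quantile normalization. Leaving out 1 array gave 0 to 153, the highest without the MET_FLOX_canertinib array of day 0. It was 0 without the MET_KO array of day 7 and 1 without that of day 2, 17 and 39 without the MET_FLOX arrays of days 2 and 7, and 38 without the MET_FLOX_canertinib array of day 2. The test of MET_KO_canertinib against the other arms called 1 gene with all 16 arrays, Il1rn, and 0 to 8 when 1 array was left out, 8 without the muscle-bearing array. The test of the drug called 0 to 4, with 4 without the MET_FLOX_canertinib array of day 2.

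The 4-arm fit called no gene, and some of its differences changed sign. None of the called 3-arm differences of named genes did so under the alternatives run. With only the arms of the high set the values were 0.0569 for E2f1, 0.104 for Ccnd1, -0.2752 for Saa1, -0.5204 for Lcn2, -0.3638 for Cyp8b1, -0.1673 for Alb, -0.011 for Cebpa, -0.1432 for Hnf4a and 0.3125 for Hgf. With only those of the low set they were -0.3341 for Cdkn1b, 0.2098 for Igf1 and 0.19 for Sqle, and Igf1 gave 0.0187 as the mean of its probe sets. Another E2f1 probe set was lower at day 7 in both arms of the high set, by -2.30 in MET_KO_canertinib and -2.66 in MET_FLOX_canertinib. Over arrays left out one at a time the 4-arm difference ran from -0.4484 to 0.0968 for Cdkn1a, -0.0757 to 0.4388 for Cdkn1b, -0.2293 to 0.8576 for Saa1, -0.4446 to 1.0837 for Lcn2, -0.2166 to 0.1129 for Igf1, -0.6653 to 0.0897 for Sqle and -0.365 to 0.2004 for Hgf. The cause was not tested. Median centring and quantile normalization put the median of all genes at 0.00709 and 0.0225, beside 0.0316 as deposited. The days were paired by arm, and arm was a block in every fit.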

Other observations

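Neutrophil genes had a median below 0 in MET_KO_canertinib and above 0 in the other arms, but their summed signals did not divide the arms in this way. The list's median difference was -0.74 there, against 0.31 in MET_FLOX_canertinib, 0.96 in MET_KO and 0.38 in MET_FLOX, over 10 measured genes. Of these 1 was higher over the 4 arms at an unadjusted p below 0.05, or 0 without the muscle-bearing array. The share of all genes was 4.91% with that array included. The sums were 47771, 33819, 39774 and 46833 at day 7, against 66182, 50633, 19923 and 22988 at day 2, lower at day 7 in both canertinib arms. S100a8 gave 468, 1025, 1114 and 353 at day 7, against 4349, 366, 365 and 258 at day 2, in the arm order MET_KO_canertinib, MET_FLOX_canertinib, MET_KO and MET_FLOX. The change in MET_KO_canertinib was lower by 4.32 than in the other arms (SE 0.74, limma adjusted p = 0.36). At day 14 its signals were 22731, 1006, 694 and 787, with the highest of all these arrays in MET_KO_canertinib. Il1rn was likewise highest there at day 14, with 3562, against 567, 621 and 886 in the other arms.

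Genes of the adipocyte list had summed signals over 4 measured genes of 11704, 23169, 30533 and 12071 at day 7, against 23502, 17886, 8369 and 5913 at day 2. Car3, a carbonic anhydrase of adipocytes, muscle and liver, made up most of each sum, with 8948, 17857, 25298 and 9721 at day 7, against 19986, 14876, 6008 and 3888 at day 2. Pancreatic acinar genes, a check for neighbouring tissue, had sums of 3700 to 5631 at day 7 and 2854 to 6428 at day 2, so neither these days nor the muscle-bearing array stood apart in them.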
